A study of Mus musculus with 5 samples.

Results

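The cytosolic ribosomal protein genes were followed in 5 RNA sequencing libraries of Lewis lung carcinoma (LLC), a mouse lung cancer cell line. They were chosen by name alone: every RPL or RPS symbol with a number, allowing the endings A, X and L, together with RPLP0, RPLP1, RPLP2 and RPSA, and without symbols marked as pseudogenes. The rule found 86 of the 13979 gene symbols that the tables used here share, of which 50 belong to the large subunit and 36 to the small subunit. Of 79 standard ribosomal proteins, 77 were found. FAU and RACK1, ribosomal components that the rule does not name, are given at the end of the results.

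The libraries were Control, BMN (BMN673, an inhibitor of the DNA repair enzyme PARP), PAZA (a polymer carrying azacytidine, a DNA methyltransferase inhibitor), and PAZA loaded with BMN at a low dose and at a high dose. Each group had 1 library. The study's methods describe tumors grown under the skin of immunocompetent C57BL/6 mice and collected a day after treatment ended. The labels instead speak of cultured LLC cells exposed for 72 h, and neither description settles which holds. Markers of leukocytes, endothelium, fibroblasts, skeletal muscle and epidermis were found in the libraries and are given below. All groups come from 1 cell line.

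Ribosomal proteins build the large and small subunits of the ribosome around the ribosomal RNAs, and a cell needs them in matched amounts. Their messenger RNAs are short and abundant, most begin with a run of pyrimidines (the 5′ TOP motif), and their translation is set as a group by mTOR and the TOP-binding protein LARP1. Several of the genes carry small nucleolar RNAs (snoRNAs, guides for the modification of ribosomal RNA) in their introns, and some of the proteins, such as RPL5 and RPL11, bind the p53 ligase MDM2 when ribosome assembly fails.

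The start of transcription is shown for 10 members, 5 that had one of the highest folds in a comparison described below and 5 that had one of the lowest, RPL24 being found at both ends (all among members with a mean level of at least 100), because the pyrimidine run at this place is the sequence the genes are known to share. Each sequence is the 30 bases from 10 before to 19 after the first base of the RefSeq transcript, on the gene's own strand, with the longest run of C or T in capitals. The coordinates are those of build GRCm38.p6, from RefSeq.
RPL27 (chr11:101442235-101442264, plus strand): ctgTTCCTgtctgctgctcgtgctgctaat
RPS21 (chr2:180257369-180257398, plus strand): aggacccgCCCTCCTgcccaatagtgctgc
RPLP2 (chr7:141447641-141447670, plus strand): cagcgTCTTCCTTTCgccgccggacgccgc
RPL19 (chr11:98026700-98026729, plus strand): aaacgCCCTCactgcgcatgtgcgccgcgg
RPS27 (chr3:90213629-90213658, minus strand): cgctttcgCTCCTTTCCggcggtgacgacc
RPL4 (chr9:64173377-64173406, plus strand): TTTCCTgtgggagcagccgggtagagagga
RPS4X (chrX:102189372-102189401, minus strand): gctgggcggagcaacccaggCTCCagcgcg
RPL24 (chr16:55966265-55966294, plus strand): gctgttgctaggaaacagactgggcgCTCg
RPS23 (chr13:90923112-90923141, plus strand): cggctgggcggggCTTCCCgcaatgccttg
RPL38 (chr11:114668570-114668599, plus strand): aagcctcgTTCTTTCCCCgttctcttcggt

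The run was 10 bases long in RPLP2 and in RPL38 and 9 in RPS27, and it was 4 in RPS4X and 3 in RPL24. Annotated starts differ between sources, and the GENCODE gene start lay 53 bases after the RefSeq start for RPL27, and 281 bases before it for RPLP2 and 164 for RPS23. RefSeq windows were matched for 61 of the 86 members, with 72 windows in all since some genes have more than 1 start. A run of at least 7 C or T was in 33 of the 72 windows (45.8%), against 17.9% of all 32851 RefSeq windows of the same length. In the windows from 250 bases before to 50 bases after the start, the ETS-type core CCGGAAG on either strand was in 26 of 72 member windows (36.1%) and in 8.86% of all windows. The GC box GGGCGG was in 62.5% and 35.7%, the YY1-type core AAGATGG in 16.7% and 6.34%, and the TATA box TATAAA in 9.72% and 13.6%, again on either strand. These are matches of letters and do not show that a factor binds.

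Levels are given as FPKM (fragments per kilobase of gene, relative to the library's size), with each library's column scaled to a sum of 1000000 over the 13979 shared symbols. They are corrected for gene length, so levels of different genes can be compared. The tables were normalized separately by the authors, so a comparison across tables rests on this scaling. The tables hold no read counts, which leaves the depth of the libraries unknown, and values carry no counting interval. No group has a replicate, so every difference below describes these libraries only.

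Summed over all 86 members, the level was 66607 in Control, 57350 in BMN, 75046 in PAZA, 83532 in BMN/PAZA low dose and 65094 in BMN/PAZA high dose. The ribosomal protein genes therefore took 6.66%, 5.74%, 7.50%, 8.35% and 6.51% of the summed level in the same order, with BMN lowest and the low-dose combination highest. The ratio of the large to the small subunit sum was 1.45 in Control, 1.47 in BMN, 1.47 in PAZA, 1.45 in BMN/PAZA low dose and 1.46 in BMN/PAZA high dose. Both subunits thus kept nearly one proportion while their sums differed between libraries.

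**Figure D1:**
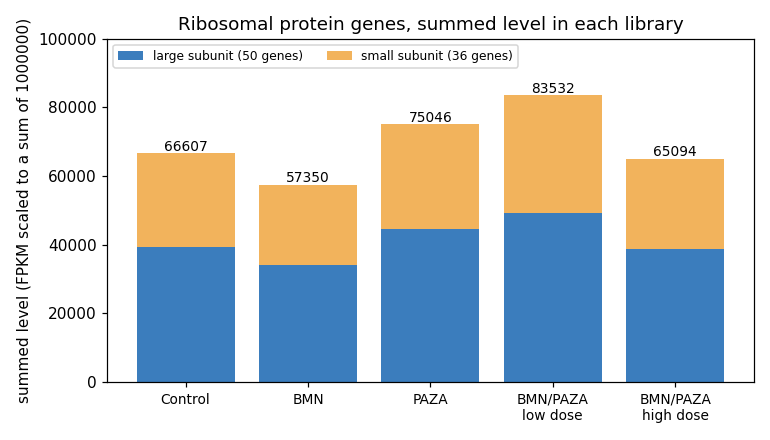
The bars give the summed level of the ribosomal protein genes in each library (FPKM scaled to a sum of 1000000), divided into large subunit (50 genes) and small subunit (36 genes); there is 1 library per bar and no error bar. BMN is lowest at 57350 and BMN/PAZA low dose highest at 83532, and the division between the subunits looks alike in all bars.

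The members were unequal in level. RPS12 and RPS24, both of the small subunit, led with mean levels of 3076 and 3010, and other members with high means were RPL23 at 2764, RPL26 at 2267, RPL32 at 2161, RPL22 at 2089, RPS4X at 1991, RPL31 at 1740 and RPL38 at 1686. Of the 86 members, 29 had a mean level of at least 1000, 74 of at least 100, and 85 passed the filter of a mean of at least 1 used for folds.

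RPS12 stood at 3225 in Control, 2632 in BMN, 3404 in PAZA, 3753 in BMN/PAZA low dose and 2365 in BMN/PAZA high dose. RPS24 stood at 3261, 2489, 3305, 3392 and 2603 in the same order. Both had their highest level in the low-dose combination and the 2 lowest in BMN and the high-dose combination. RPL23 differed from them, with 3068 in Control, 2876 in BMN, 2998 in PAZA, 2521 in BMN/PAZA low dose and 2358 in BMN/PAZA high dose. Both combinations stood below the other libraries here, but BMN stood below both combinations when scaled by the median ratio of symbols and below the high dose when scaled over nuclear protein-coding symbols.

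**Figure D2:**
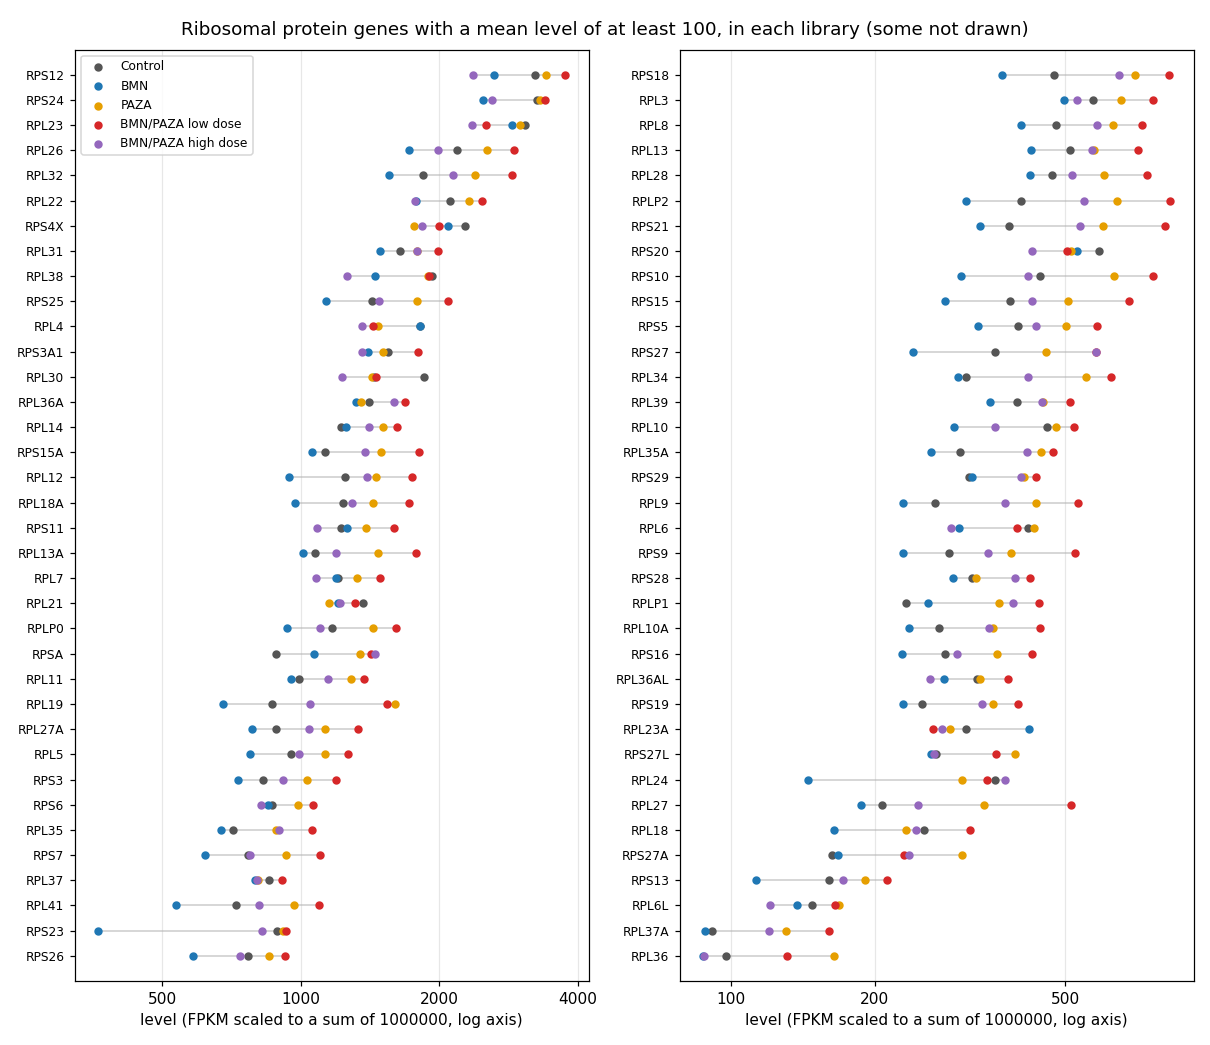
Each line is a ribosomal protein gene with a mean level of at least 100 (sorted by mean, with some members not drawn), and the points give its level in each of the 5 libraries on a log axis (FPKM scaled to a sum of 1000000). In most lines the low-dose point (red) lies at the right end and the BMN point (blue) at the left end, and RPS23 and RPL24 have a BMN point far to the left of the others.

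The order of the libraries recurred across members. The low-dose combination had the highest level of 63 of the 86 genes, PAZA of 10, Control of 7, the high-dose combination of 4 and BMN of 2. BMN had the lowest level of 58, the high-dose combination of 18, Control of 7, PAZA of 2 and the low-dose combination of 1. These counts follow the scaling: brought to one scale by the median ratio of symbols, the low dose was highest for 55 members and BMN lowest for 78, and scaled over nuclear protein-coding symbols, 53 and 76, with the high dose lowest for 2 and 1. In 50 members the low-dose combination was highest and BMN lowest. The shares of all symbols with these highest and lowest libraries were not computed, so these counts have no background beside them. In 65 of 86 members (75.6%) all 3 libraries with PAZA stood above BMN, as they did for 14.9% of all 11214 symbols that passed the filter. With the median ratio the shares were 94.2% and 30.6%.

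BMN against Control asks what the PARP inhibitor alone does. Of the 85 members that passed the filter, 75 were lower in BMN and 10 higher, with a median log2 fold of -0.20, beside 0.09 over all symbols. On this scale a log2 fold is the difference of log2(level + 1), which understates the change of weakly expressed genes. None of the members was at least 1.5-fold higher (all symbols 13%) and 6 were at least 1.5-fold lower, which is 7.06% of the members beside 6.97% of all symbols. By the median ratio 10 members were at least 1.5-fold lower (9.17% of all symbols), with a median of -0.32, and over nuclear protein-coding symbols 8 (8.97% of all symbols).

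The 2 genes with the lowest folds in BMN stood apart from the rest. RPL24, a large subunit protein at the bridge between the subunits, had a level of 357 in Control, 145 in BMN, 305 in PAZA, 343 in BMN/PAZA low dose and 374 in BMN/PAZA high dose, a log2 fold of -1.29 for BMN against Control. RPS23, a protein of the decoding centre of the small subunit, had 888, 364, 916, 930 and 825 in the same order, also a log2 fold of -1.29. For both genes BMN alone was far below the other 4 libraries, which lay between 305 and 374 for RPL24 and between 825 and 930 for RPS23. The highest folds in BMN were those of RPL23A (0.43) and RPSA (0.28). RPL23A, which lies at the exit of the peptide tunnel, stood at 311 in Control, 420 in BMN, 287 in PAZA, 265 in BMN/PAZA low dose and 276 in BMN/PAZA high dose, with BMN highest and the low dose lowest. RPL24 lies on chromosome 16 from 55966275 to 55971435, RPS23 on chromosome 13 from 90922958 to 90924950 and RPL23A on chromosome 11 from 78180932 to 78183584 in GENCODE M21 on GRCm38, and all are annotated as protein coding.

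PAZA against Control asks what the azacytidine polymer alone does. Here 68 of 85 members were higher and 17 lower, with a median log2 fold of 0.27 beside -0.10 over all symbols. A difference of at least 1.5-fold upward was found for 13 members (15.3%, beside 10.6% of all symbols), and none was at least 1.5-fold lower (15.6% of all symbols). By the median ratio 21 members were at least 1.5-fold higher (13.6% of all symbols). The highest folds among members with a mean of at least 100 were those of RPS27A (0.90), which is made as a fusion with ubiquitin, and RPL19 (0.88). RPS27A had a level of 163 in Control, 168 in BMN, 305 in PAZA, 230 in BMN/PAZA low dose and 236 in BMN/PAZA high dose. RPL19 had 868, 680, 1603, 1537 and 1048 in the same order. In both genes PAZA was the highest library and all 3 PAZA libraries stood above both libraries without it. The lowest folds were those of RPL30 (-0.37) and RPS4X (-0.37). RPL30 had 1852 in Control, 1446 in BMN, 1431 in PAZA, 1459 in BMN/PAZA low dose and 1228 in BMN/PAZA high dose, and RPS4X, an X-linked gene, had 2277, 2091, 1764, 1994 and 1830. For both genes Control was the highest library.

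In BMN/PAZA low dose against Control, 74 of 85 members were higher and 11 lower. The median log2 fold was 0.47 beside -0.08 over all symbols. At least 1.5-fold higher were 29 members (34.1%, beside 11.2% of all symbols), and none was at least 1.5-fold lower (14.2% of all symbols). Among members with a mean of at least 100, RPL27 led with a log2 fold of 1.31, from levels of 208 in Control, 187 in BMN, 338 in PAZA, 515 in BMN/PAZA low dose and 246 in BMN/PAZA high dose. RPS21, a small subunit protein, followed with 1.08, from 381, 332, 600, 808 and 538. For both genes the low dose stood well above every other library. RPL30 (-0.34) and RPL4 (-0.34) were lowest. RPL4, a large subunit protein with a loop that lines the exit tunnel, had 1817 in Control, 1815 in BMN, 1473 in PAZA, 1438 in BMN/PAZA low dose and 1361 in BMN/PAZA high dose, so that all 3 PAZA libraries stood below the other 2.

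In BMN/PAZA high dose against Control the members were divided, with 51 higher and 34 lower (60.0% higher) and a median log2 fold of 0.11 beside -0.22 over all symbols. The 1.5-fold limit was passed upward by 5 members (5.88%, beside 8.44% of all symbols) and downward by 2 members (2.35%, beside 20.2%). This division depended on the scaling: brought to one scale by the median ratio of symbols, 80.0% of the members were higher in the high dose, with 18 members past the 1.5-fold limit upward (13.6% of all symbols) and 0 downward (10.5%). Scaled over nuclear protein-coding symbols, 82.4% were higher, with 21 members past the limit upward (16.2% of all symbols) and 0 downward (10.3%). RPLP1 (0.75) and RPSA (0.72) had the highest folds among members with a mean of at least 100. RPLP1, an acidic protein of the stalk that recruits elongation factors, had 232 in Control, 259 in BMN, 364 in PAZA, 440 in BMN/PAZA low dose and 390 in BMN/PAZA high dose. RPSA, which is also known as a laminin receptor, had 883, 1070, 1346, 1418 and 1450. Control was the lowest library for both genes. RPL38 (-0.62) and RPL30 (-0.59) were lowest. RPL38 had 1929 in Control, 1450 in BMN, 1889 in PAZA, 1902 in BMN/PAZA low dose and 1259 in BMN/PAZA high dose, and its BMN and high-dose levels lay below the other 3.

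RPS2 was singled out after its values were seen, since it lies under the mean of 100. This small subunit gene had a level of 31.5 in Control, 29.5 in BMN, 43.3 in PAZA, 59.5 in BMN/PAZA low dose and 216 in BMN/PAZA high dose. Its log2 fold of 2.74 for the high dose against Control was the highest of any member in that comparison, and no other member had the high dose so far above the rest. RPS2 lies on chromosome 17 from 24718116 to 24721929, holds 1 snoRNA and has 11 named pseudogenes in GENCODE M21.

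BMN/PAZA low dose against BMN compares the combination with the inhibitor alone, and it gave the largest member median of the 8 comparisons. Of 85 members 79 were higher in the combination and 6 lower, with a median log2 fold of 0.75, a fold of 1.69, beside -0.18 over all symbols. At least 1.5-fold higher were 50 members (58.8%, beside 9.37% of all symbols) and at least 1.5-fold lower was 1 member (1.18%, beside 20.3%), RPL23A (-0.66). By the median ratio 66 members were at least 1.5-fold higher (14.3% of all symbols) and over nuclear protein-coding symbols 59 (13.9%), and under both scalings 0 were at least 1.5-fold lower, so that RPL23A no longer passed the limit. Among members with a mean of at least 100, RPL27 (1.46) and RPLP2 (1.42) had the highest folds, and RPL4 (-0.34) was lowest after RPL23A. RPLP2, the partner of RPLP1 in the stalk, had 403 in Control, 310 in BMN, 641 in PAZA, 828 in BMN/PAZA low dose and 547 in BMN/PAZA high dose. The interquartile range of the log2 folds was 0.48 over the 74 members with a mean of at least 100, and 0.67 over all 1068 symbols of that level.

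BMN/PAZA high dose against BMN gave a smaller difference. Here 65 members were higher and 20 lower (76.5% higher), with a median log2 fold of 0.36 beside -0.31 over all symbols, and 95.3% were higher both when scaled by the median ratio (median 0.72) and when scaled over nuclear protein-coding symbols (median 0.70). Upward, 19 members passed the 1.5-fold limit (22.4%, beside 6.13% of all symbols), and downward 2 members did (2.35%, beside 26.4%). By the median ratio 55 members passed it upward (13.3% of all symbols) and 0 downward (10.5%), and over nuclear protein-coding symbols 53 (14.1%) and 0 (12.1%). RPL24 (1.36) and RPS27 (1.27) had the highest folds among members with a mean of at least 100, and RPS2, below that mean, had 2.83. RPS27, a zinc finger protein of the small subunit, had 357 in Control, 240 in BMN, 457 in PAZA, 580 in BMN/PAZA low dose and 581 in BMN/PAZA high dose. RPL23A (-0.60) and RPL4 (-0.41) had the lowest folds at a mean of at least 100, and RPL7L1, below that mean, had -0.64.

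BMN/PAZA low dose against PAZA asks what BMN adds to the polymer. Of 85 members 72 were higher and 13 lower, with a median log2 fold of 0.19 beside 0.03 over all symbols. Only 2 members were at least 1.5-fold higher (2.35%, beside 9.12% of all symbols), and none was at least 1.5-fold lower (8.13% of all symbols). These were RPL27 and RPS12L1, which is annotated as a pseudogene and had a level of at most 1.88. By the median ratio 1 member was at least 1.5-fold higher (8.7% of all symbols), and over nuclear protein-coding symbols 2 were (10.5%). RPL27 (0.61) had the highest fold among members with a mean of at least 100. RPS27A (-0.40) and RPL36 (-0.33) were lowest at this level, and RPL7A, below that mean and named after its values were seen, had -0.42. RPL36 had 97.6 in Control, 87.7 in BMN, 165 in PAZA, 131 in BMN/PAZA low dose and 88.2 in BMN/PAZA high dose, with PAZA highest.

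Between the doses, 78 of 85 members were higher in BMN/PAZA low dose than in BMN/PAZA high dose and 7 lower (91.8% higher, beside 65.8% of all symbols), with a median log2 fold of 0.37 beside 0.13 over all symbols. Scaled by the median ratio 80.0% were higher (49.4% of all symbols), and scaled over nuclear protein-coding symbols 74.1% (45.0% of all symbols). At least 1.5-fold higher were 12 members (14.1%, beside 12.5% of all symbols), and RPS2 was the 1 member at least 1.5-fold lower (1.18%, beside 6.38%). Under the other scalings 5 members were at least 1.5-fold higher, beside 8.26% of all symbols by the median ratio (member median 0.22) and 8.45% over nuclear protein-coding symbols (member median 0.18). Among members with a mean of at least 100, RPL27 (1.06) and RPS10 (0.86) had the highest folds, RPS10 from 442 in Control, 303 in BMN, 632 in PAZA, 762 in BMN/PAZA low dose and 418 in BMN/PAZA high dose. RPL24 (-0.12) and RPL23A (-0.06) had the lowest folds at this level.

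The comparisons share libraries: Control enters 4 of them, BMN 3 and the low-dose combination 4, so their values are set side by side and are not separate evidence.

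**Figure D3:**
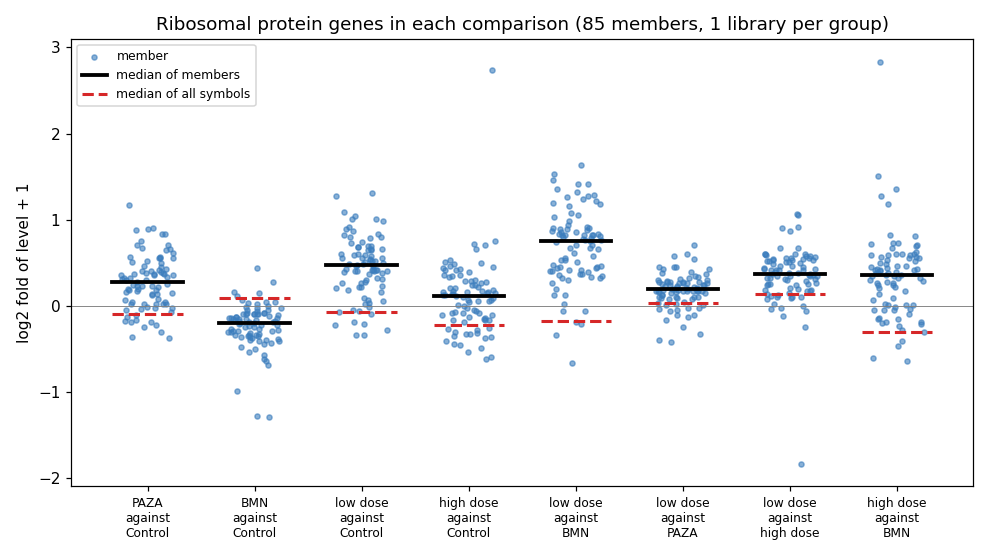
Each point is the log2 fold of level + 1 of a ribosomal protein gene (85 members with a mean level of at least 1) in 1 of 8 comparisons, with 1 library per group; the black line is the median of the members and the dashed red line the median over 11214 symbols. The members' median lies above that of all symbols in every comparison but BMN against Control, by 0.93 for low dose against BMN, and the point near 2.8 in the comparison of high dose with BMN is RPS2.

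Members of the large and small subunit had similar medians. For BMN/PAZA low dose against BMN the median log2 fold was 0.74 over the 50 large subunit members and 0.78 over the 35 small subunit members that passed the filter, and for BMN/PAZA low dose against Control it was 0.44 and 0.52. For PAZA against Control the medians were 0.23 and 0.32, and for BMN against Control -0.19 and -0.27.

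The 30 members with a snoRNA inside the gene and the 51 other protein-coding members had different medians in several comparisons, and the difference was not tested. For BMN/PAZA low dose against BMN the medians were 0.66 and 0.80, for BMN/PAZA low dose against Control 0.41 and 0.52, and for PAZA against Control 0.19 and 0.36, while for BMN against Control they were -0.19 and -0.21 and for BMN/PAZA low dose against PAZA 0.19 and 0.18. Several of the members that went against the group carry snoRNAs, among them RPL4 with 5, RPL23A with 3 and RPL30 with 1, but RPS4X and RPL38 carry none. RPL5, with 3 snoRNAs, had a level of 953 in Control, 776 in BMN, 1127 in PAZA, 1267 in BMN/PAZA low dose and 993 in BMN/PAZA high dose. One of them, SNORD21, was listed on its own at 18174, 11225, 38762, 7101 and 27265, far above its host gene and in another order. Levels of such short RNAs are sensitive to the length correction.

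Members known for roles outside protein synthesis, or often used as markers, differed in their highest library. The low-dose combination was highest for RPL5, RPL11, RPS6, RPS19 and RPLP0, while the high dose was highest for RPSA and PAZA for RPS27A and RPS27L. RPL11, which binds MDM2 together with RPL5, had 992 in Control, 953 in BMN, 1284 in PAZA, 1373 in BMN/PAZA low dose and 1144 in BMN/PAZA high dose. RPS6, the substrate of the S6 kinases below mTOR, had 865, 851, 988, 1062 and 820. RPS19, the gene most often mutated in Diamond-Blackfan anemia, had 251, 229, 354, 399 and 335. RPLP0, the base of the stalk and a common reference gene, had 1169, 933, 1433, 1614 and 1104, with the low-dose combination and PAZA as its 2 highest libraries, as for its partner RPLP2.

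Paralogs encoded by separate genes were mostly below their parents. RPL22L1 had levels of 21.8, 19.3, 32.3, 31.2 and 21.3 in Control, BMN, PAZA, BMN/PAZA low dose and BMN/PAZA high dose, while RPL22 had 2111, 1780, 2316, 2472 and 1767. RPL7L1 had 35.1, 39.0, 35.5, 52.2 and 24.6, beside 1206, 1195, 1325, 1490 and 1080 for RPL7. RPL36AL had 328, 279, 332, 379 and 261, beside 1408, 1321, 1354, 1688 and 1594 for RPL36A. RPS27L, a p53 target, was of the same order as its parent RPS27, with 268, 262, 393, 359 and 266. It was highest in PAZA, whereas RPS27 was highest in the 2 combinations.

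Other paralogs were at or near the lower end. RPL39L, known from testis, was at 0.369 FPKM in Control, 0.370 in PAZA, 0.839 in BMN and 0 in BMN/PAZA low dose in deposited values, while RPL39 had scaled levels of 397, 348, 449, 511 and 447 in the order of the libraries used above. RPL3L, known from muscle, was at 0.374 FPKM in BMN, 0.172 in BMN/PAZA high dose and listed at 0 in BMN/PAZA low dose, whereas RPL3 had scaled levels of 570, 498, 653, 762 and 529. RPL10L was listed at 0 FPKM in BMN and in BMN/PAZA low dose, and its parent RPL10 had scaled levels of 458, 293, 478, 521 and 356. RPL32L, annotated as a pseudogene, had 0.457 FPKM in BMN, 0.619 in BMN/PAZA high dose and 0 in PAZA. In BMN/PAZA low dose it had from 0.619 to 2.11 in tables that were normalized separately. RPL3L, RPL10L, RPL32L and RPL39L are not in all 3 tables and were not among the 86.

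Of the 86 members, 5 carry symbols without a pseudogene mark but are annotated as processed pseudogenes in GENCODE M21: RPL6L, RPS3A2, RPS3A3, RPS4L and RPS12L1. RPL6L had a mean level of 148 beside 366 for RPL6, and RPS3A2 and RPS3A3 had 79.8 and 44.5 beside 1523 for RPS3A1, while RPS12L1 had at most 1.88 beside 3753 for RPS12, both in BMN/PAZA low dose, and RPS4L had a mean of 0.787 beside 1991 for RPS4X. Of the 81 coding members, 60 have at least 1 named pseudogene and up to 24 (RPS12 and RPL31), so reads may be shared between near-identical copies and the levels of single members are uncertain. The 60 members with named pseudogenes and the 21 without had medians of 0.77 and 0.67 for BMN/PAZA low dose against BMN, 0.28 and 0.33 for PAZA against Control, and -0.21 and -0.18 for BMN against Control.

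Among the 61 members with a RefSeq window, the 28 whose first window has a run of at least 7 C or T and the 33 with a shorter run had medians of 0.77 and 0.80 for BMN/PAZA low dose against BMN and of 0.36 and 0.24 for PAZA against Control. The ranges overlapped broadly, from 0.32 to 1.42 and from -0.34 to 1.46 for BMN/PAZA low dose against BMN.

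Transcript length moved with the same comparisons. The longest coding transcript had a median of 937 nt over the 81 coding members and 3163 nt over 10613 other coding symbols. Among other nuclear coding symbols, the median log2 fold of BMN/PAZA low dose against BMN was 0.43 for those under 600 nt (80 symbols), 0.22 from 600 to below 1000 nt (432), -0.01 from 1000 to below 2000 nt (2085) and -0.25 at 2000 nt or more (8016). In the same bins the ribosomal protein genes had 0.62 (18 genes), 0.79 (28), 0.79 (28) and 0.71 (7). For PAZA against Control the other symbols had 0.27, 0.28, 0.10 and -0.19, and the ribosomal protein genes 0.41, 0.22, 0.31 and 0.13. Ribosomal protein genes under 1000 nt were thus near other short genes in PAZA against Control, while in BMN/PAZA low dose against BMN they stood above other genes in every bin, by 0.19, 0.57, 0.81 and 0.96. The bins use the longest annotated transcript, which was 5179 nt for RPS15A and 3706 nt for RPS20. Which form was expressed was not determined, so a member in a long bin may have a short messenger RNA. The part of transcript length in the result was not tested beyond these bins.

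**Figure D4:**
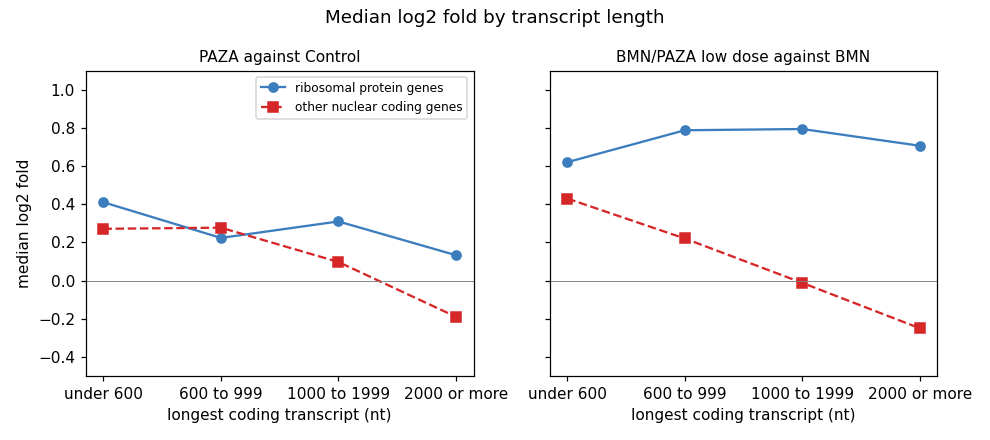
Points give the median log2 fold of ribosomal protein genes (circles) and of other nuclear coding genes (squares) in 4 bins of the longest coding transcript (nt), for PAZA against Control and for BMN/PAZA low dose against BMN. The other genes decline with length from 0.43 to -0.25 in the right panel, where the ribosomal protein genes stay between 0.62 and 0.79.

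Abundant RNAs and markers of other cell types also differed between the libraries. The noncoding RNA RN7SK took 8.51% of the summed level in Control, 6.66% in BMN, 11.4% in PAZA, 13.6% in BMN/PAZA low dose and 9.98% in BMN/PAZA high dose, and the short noncoding RNA RMRP stood at 2822, 84.9, 4762, 5649 and 3995, far lower in BMN than in any other library. The mitochondrial ribosomal RNAs took 22.1%, 22.7%, 20.4%, 21.6% and 28.1%. Within nuclear protein-coding symbols alone the ribosomal protein genes took 11.6%, 9.60%, 13.9%, 15.4% and 13.8%, so that the high dose stood above Control on this basis. All 7 skeletal muscle markers were found, with summed levels of 8.39, 171, 55.1, 11.3 and 194, as were all 6 fibroblast markers, with 313, 817, 534, 318 and 350. Of 6 epidermis markers 5 were found, with 68.5, 205, 8.09, 1.84 and 12.8, and KRT5 was listed at 0 in the low dose. All 6 leukocyte markers summed to 165, 214, 213, 150 and 141 and all 5 endothelial markers to 35.9, 55.6, 61.5, 42.1 and 40.8. Of 5 erythroid markers 2 were found, with 3.86, 2.44, 2.13, 2.25 and 2.42. None of 6 lung epithelium markers is among the shared symbols, and SFTPC, SFTPB, SFTPA1, SCGB1A1 and NKX2-1 were listed at 0 in the table of BMN and the low dose, where AGER was listed at 0 in BMN and at 0.351 FPKM in the low dose. All 6 proliferation genes summed to 1129, 1765, 1255, 1052 and 979, highest in BMN. The part of these differences in the ribosomal protein levels was not tested, and fewer cells of a type and less RNA per cell cannot be told apart.

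Other parts of the translation machinery did not share one direction. The median log2 fold of BMN/PAZA low dose against BMN, which was -0.18 over all symbols, was 0.75 for the cytosolic ribosomal proteins, 0.31 over 10 elongation factors, 0.20 over 78 mitochondrial ribosomal proteins and 0.50 over 11 other snoRNA host genes. It was -0.26 over 38 initiation factors, -0.29 over 75 ribosome biogenesis factors, -0.32 over 15 genes of the RNA polymerase I machinery, -0.32 over 18 genes of the TOR pathway and TOP binding, and -0.00 over 31 proteasome subunits. By the median ratio the first 4 stayed above 0 (0.96, 0.51, 0.39 and 0.69) and the next 4 below it (-0.06, -0.10, -0.14 and -0.14), while the proteasome subunits stood at 0.20. At least 1.5-fold higher in this comparison were 0 elongation factors, 14 mitochondrial ribosomal proteins, 3 snoRNA hosts, 2 initiation factors, 4 biogenesis factors, 0 genes of RNA polymerase I, 0 of the TOR list and 5 proteasome subunits, and at least 1.5-fold lower were 1, 3, 0, 7, 16, 4, 5 and 1. Over all symbols 9.37% were higher and 20.3% lower by this limit, so that the initiation (7 of 38) and biogenesis (16 of 75) lists were near the background downward. The lists also differed in length. The median longest coding transcript was 2717 nt for initiation, 2804 for biogenesis, 2986 for RNA polymerase I and 5625.5 for TOR. It was 2318.5 nt for elongation, 1327.5 for mitochondrial ribosomal proteins and 1581 for the proteasome. The part of length in these medians was not tested.

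EEF1A1, the elongation factor that brings aminoacyl-tRNA to the ribosome and itself a TOP mRNA, had 6002 in Control, 5350 in BMN, 6437 in PAZA, 7126 in BMN/PAZA low dose and 5902 in BMN/PAZA high dose, with the low dose highest and BMN lowest as in 50 of the members. PABPC1, the poly(A)-binding protein and another TOP mRNA, had 1992, 1820, 1106, 1206 and 1190, with all 3 PAZA libraries below the other 2. Of the biogenesis factors, nucleophosmin (NPM1) had 4278, 4297, 3510, 3020 and 2752, and nucleolin (NCL) had 704, 832, 500.1, 387 and 395. NOP58, a core protein of snoRNA particles, had 824, 937, 854, 621 and 561. NPM1 and NCL stood lower in all 3 PAZA libraries than in Control and BMN, while NOP58 did so only in the 2 combinations.

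**Figure D5:**
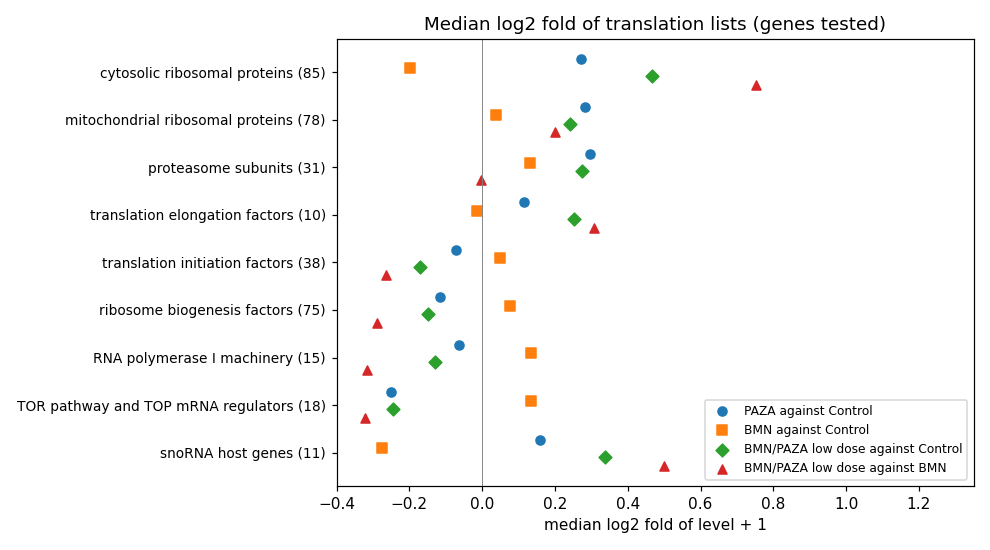
Points give the median log2 fold of each gene list (number of genes tested in parentheses) in 4 comparisons that share libraries, with 1 library per group. For low dose against BMN the cytosolic ribosomal proteins lie at 0.75, and the initiation, biogenesis, RNA polymerase I and TOR lists lie between -0.26 and -0.32.

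FAU and RACK1, which the name rule leaves out, had the same highest and lowest libraries as most members. FAU, which makes a small subunit protein from a fusion, had 494 in Control, 364 in BMN, 547 in PAZA, 678 in BMN/PAZA low dose and 517 in BMN/PAZA high dose. RACK1, a scaffold on the small subunit, had 461, 393, 624, 655 and 511 in the same order. Both were highest in the low-dose combination and lowest in BMN, and for BMN/PAZA low dose against BMN their log2 folds were 0.90 and 0.73.

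Several libraries were deposited in more than 1 table, and the copies were compared. In all 6 pairs of tables that hold the same library, none of the ribosomal protein genes lay more than 0.5% from the constant between the tables, while between 0 and 416 other symbols did. The largest deviation of a member with a mean of at least 100 was 0.00536%. For the members the copies are thus the same values times a constant, and their agreement does not bear on the accuracy of single levels.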

How the data were processed

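RNA sequencing values of 5 libraries, 1 per group, were taken from 5 deposited tables of 2 libraries each. The submitters' processing notes name HISAT2, StringTie and GRCm38; versions are not given in the sources used here. The tables name no unit, and the values the authors deposited were read as FPKM from their form. Control and PAZA were read from 1 table, BMN and BMN/PAZA high dose from another, and BMN/PAZA low dose from the third, where its column is a multiple of that in other tables, which scaling removes. Of repeated symbols the entry with the highest mean was kept. Each column was scaled to a sum of 1000000 over 13979 shared symbols. Folds used log2(level + 1) for symbols with a mean of at least 1, and 1.5-fold marked a difference. The depth is unknown.

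Named genes were the 10 highest means, the 2 highest and 2 lowest folds per comparison at a mean of at least 100, paralogs with their parents, RPS6, RPL5, RPL11, RPS19, RPSA, RPLP0 to RPLP2 and RPS27A, and up to 3 of each other list; some of these genes are not reported here. Members and lists were chosen with earlier results of these data known. GENCODE M21 gave gene types, lengths and snoRNAs (13804 symbols matched). Alternatives were other scalings, tables, pseudocounts (0.1), filters, folds and member sets. On simulated data for PAZA against Control (11214 symbols), 100 of 100 symbols raised 4-fold and 100 of 100 lowered 4-fold passed the 1.5-fold limit in that direction, as did 17 of 6297 unchanged ones in either. The noise was set in advance to a standard deviation of 0.1 in natural log, and these symbols had a mean of at least 10. The outcome therefore checks the computation and gives no error rate for these libraries. Computations ran in Python 3.11.15 with pandas 2.3.3, numpy 2.4.6 and matplotlib 3.10.9.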

Additional observations from a re-analysis of the deposited data

Results flagged for a closer look

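RPL24 differed between the 2 contrasts that add PAZA, with a log2 fold of -0.23 for PAZA against Control and of 1.24 for BMN/PAZA low dose against BMN, opposite in direction. The difference was not tested, since each group has 1 library. Of the 74 members with a mean level of at least 100, 9 had opposite signs in these contrasts at any size, and RPL24 was the 1 member with at least 1.1-fold in both. This holds for the main scaling only. By the median ratio RPL24 fell below 1.1-fold for PAZA against Control, while RPL30 and RPL21 reached it in both contrasts, with opposite signs.

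RPL39L, outside the 86 members because it is not in all tables, was at 0.839 FPKM in BMN, above 0.369 in Control, in tables that were normalized separately.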

How the results depend on the processing

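No paired analysis was possible because no group holds more than 1 library. Of 263 values, 212 stayed within tolerance (0.1 on the log2 scale, 10% of a sum, 1.5 times a count) and 51 moved. No median changed sign, and the order of the libraries was not part of this check. In the order PAZA, BMN, low dose and high dose against Control, then low dose against BMN, PAZA and high dose, then high dose against BMN, the members past 1.5-fold in either direction became 40, 27, 59, 32, 73, 17, 53 and 51 at a limit of 25% upward or its inverse downward, and 1, 2, 6, 1, 18, 0, 3 and 5 past 2-fold. Scaled by the median ratio, medians became 0.38 for PAZA, -0.32 for BMN and 0.34 for high dose against Control, 0.96 for low dose and 0.72 for high dose against BMN, and 0.22 between doses. Counts became 21, 10 and 18 against Control, 1 for low dose against PAZA, 6 between doses and 55 for high dose against BMN, and sums 50422 in BMN and 73291 in high dose. The high-dose sum then stood above that of Control (63483), whereas in the main scaling it stood below (65094 beside 66607). Scaled over nuclear protein-coding symbols (chosen after seeing the data), medians became 0.38 for PAZA and 0.40 for high dose against Control, 0.89 and 0.70 for low and high dose against BMN, and 0.18 between doses, with counts of 21, 22, 6 (between doses) and 54 (high dose against BMN) over 86 members, since 1 more passed the filter (20, 21, 6 and 53 over the same 85), and sums of 115613, 96045, 139029, 154462 and 137960 from a smaller total. The shift of the median over all symbols between scalings was largest for high dose against BMN, from -0.31 to 0.01. With low dose from the table with BMN, and with members of a mean of at least 100, the counts were 1 for low dose against PAZA and 8 between doses; without annotated pseudogenes (also chosen after seeing the data) the first was 1. In deposited values within 1 table, medians were 0.90 and 0.53 for low and high dose against BMN, and 2.06 between doses, where the low-dose column is a multiple. The unknown depth and 1 library per group limit every value.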
